A study of Mus musculus with 4 samples.

Results

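CTCF occupancy was described along 9 very long mouse genes of the kind found at chromosomal fragile sites: Wwox, Fhit, Macrod2, Immp2l, Lrp1b, Csmd1, Csmd3, Dab1 and Auts2. They were chosen by name, with earlier results of these data known. All 9 were found among the 21774 protein-coding genes that RefSeq places on the chromosomes of GRCm38.p6. Each was set beside the other 548 protein-coding genes of 300 kb or more. The data came from 2 CTCF immunoprecipitations (ChIP-seq) and 2 input libraries of wild-type cortical neurons, taken from Swiss-Webster embryos at day 16, cultured for 13 days and left untreated. They are deposited as 1 joint list of 33820 peaks, each called in both immunoprecipitations and kept for their agreement, at a threshold of 0.05 on the irreproducible discovery rate (IDR). With 1 condition and 1 joint list there is no test between groups of samples, the sequencing depth is unknown, and intervals below are exact 95% intervals that cover counting error only.

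Common fragile sites are regions that break or gap on metaphase chromosomes when DNA replication is partly blocked, and many lie within very long genes. In human cells WWOX and FHIT span the best known of them. CTCF is a zinc finger protein that halts the loop-extruding cohesin complex and so marks the anchors of chromatin loops, so the spacing of its sites bears on how a gene is folded. The genes encode unrelated proteins. Wwox encodes a short-chain oxidoreductase with WW domains and Fhit a hydrolase of diadenosine polyphosphates, both studied as tumour suppressors. Macrod2 encodes an enzyme that removes ADP-ribose from proteins, and Immp2l a subunit of the inner mitochondrial membrane peptidase. Lrp1b encodes a giant receptor of the LDL receptor family, and Csmd1 and Csmd3 large membrane proteins built of CUB and sushi domains. Dab1 encodes the intracellular adaptor of Reelin signalling, which guides migrating cortical neurons, and Auts2 a nuclear regulator of gene expression linked to neurodevelopmental disorders.

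The 9 genes together covered 12.6 Mb. Lrp1b was the longest at 2058 kb (chr2:40595290-42653598), followed by Macrod2 at 1998 kb (chr2:140395303-142392966), Csmd1 at 1643 kb (chr8:15892538-17535385) and Fhit at 1612 kb (chr14:9550092-11162061). Csmd3 spanned 1212 kb (chr15:47580638-48792558), Dab1 1125 kb (chr4:103619500-104744844) and Auts2 1106 kb (chr5:131437333-132543220). Immp2l at 932 kb (chr12:41024061-41955588) and Wwox at 913 kb (chr8:114439635-115352712) were the shortest. Their median length was 1212 kb, against 448 kb for the other genes of 300 kb or more, so length has to be kept in view in each comparison. A peak was placed by its summit, its point of highest signal. In all, 57 summits lay within the 9 genes or within 1 kb of their ends, 8 at an end and 49 deeper inside.

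**Figure D1:**
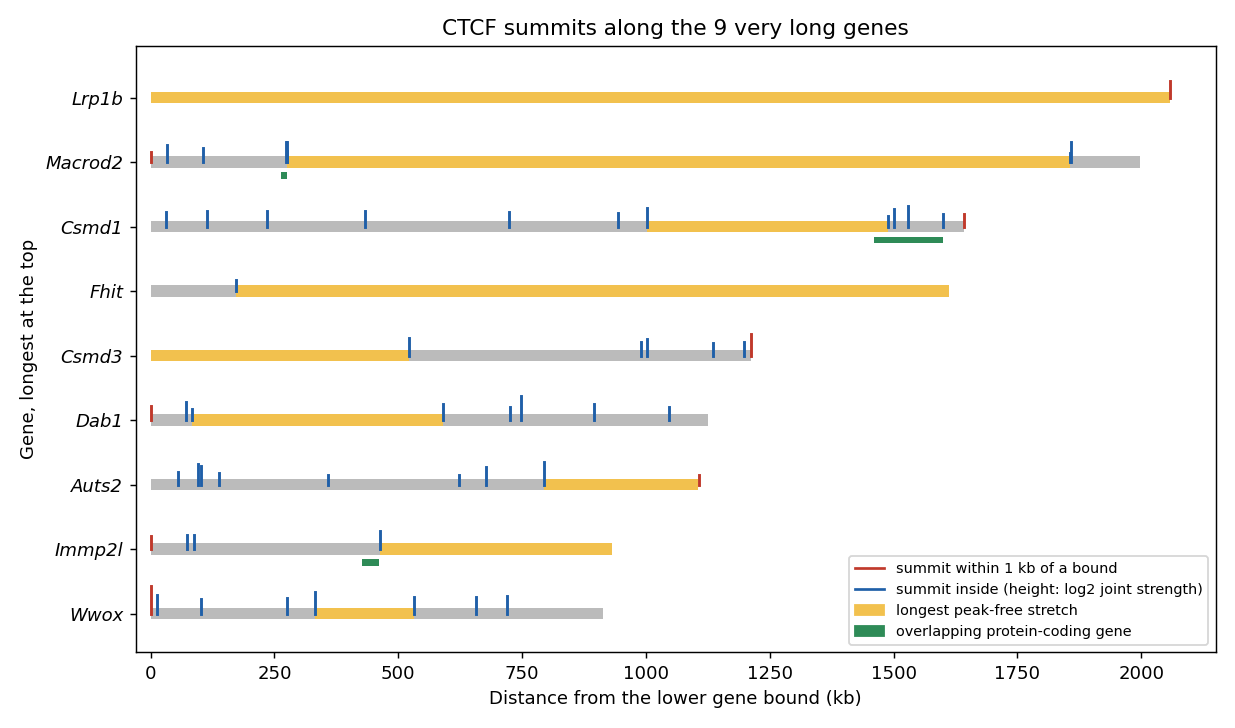
CTCF summits along the 9 genes, drawn to scale from the lower gene bound (x axis, kb; genes on the y axis, longest at the top). Red lines are summits within 1 kb of a bound, blue lines are inside summits with a height that follows the log2 joint strength, yellow marks the longest peak-free stretch and green an overlapping protein-coding gene. Lrp1b has no inside summit, Fhit has 1, and every gene but Fhit has a summit at exactly 1 of its bounds.

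Most of the 9 genes had a peak at 1 end. Of the 9, 8 had a summit within 1 kb of a bound (88.9%, interval 51.8 to 99.7), against 47.1% of the other genes of 300 kb or more (258 of 548). Fhit was the exception. Each of the 8 had 1 end peak at exactly 1 bound, which 45.4% of the other genes also had. None had one at both bounds, against 1.64% of the other genes (9 of 548). Against the 52 other genes of 1000 kb or more, of which 42.3% had an end peak, the difference was as large. How far this depended on weak peaks differed with the measure of weakness. Strength here is an authors' value that adds the −log10 p of the 2 replicate peaks, with a median of 166 over the list. Among peaks above that median only 2 of the 9 genes, Wwox and Csmd3, had an end peak, and their share lay 2.60 points below that of the other genes (24.8%). Taking only peaks whose value in the first replicate column exceeded its median, 6 of the 9 had one, against 36.9% of the other genes, and at an IDR of 0.01 it was 6 of the 9, against 40.1%. With ends taken as 5 kb wide, 8 of the 9 genes had an end peak, against 69.0% of the other genes, which lowered the difference to 19.9 points, against 41.8 points with 1 kb.

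Wwox had by far the strongest end peak of the 9. Its summit lay 416 bp inside the lower bound (chr8:114439518-114442377), with a strength of 1301 made of 613 and 688 in the first and second replicate column. The Csmd3 peak, 375 bp beyond the upper bound, had a strength of 418, with 36.5 in the first column and 381 in the second. These columns cannot be tied to a labelled replicate. The Lrp1b peak lay 600 bp inside the upper bound (chr2:42652098-42653382) and reached 143, with 45.1 and 97.5 in the first and second column. Below it came Dab1 at 83.9 (59.2 and 24.6 in the first and second column) and Immp2l at 81.9 (48.3 and 33.6), the 2 end peaks that were stronger in the first column. Csmd1 followed at 68.3 (33.4 and 34.8), then Macrod2 at 44.3 (19.6 and 24.7) and Auts2 at 40.05 (17.7 and 22.3). Macrod2 and Auts2 thus stood close to 32.5, the weakest peak of the list. The median over the 8 was 82.9, against 161 for 269 end peaks of the other long genes. The end peaks of Dab1 and Csmd3 also lay within 1 kb of a long non-coding gene, Gm36604 and Gm34336, so they cannot be given to the coding gene alone.

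The bound without a peak was often remote from any. The summit nearest to it was 1222 kb away at Lrp1b, 522 kb at Csmd3, 468 kb at Immp2l and 139 kb at Macrod2. At Dab1 it was 79.1 kb away, at Wwox 43.3 kb, at Csmd1 30.9 kb and at Auts2 9.11 kb. At Fhit neither bound was near a peak, with the nearest summits 156 kb and 145 kb from the lower and the upper bound.

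Which bound is the start of transcription could be read for the genes with an entry in the RefSeq promoter table, 4 of the 9 (Macrod2, Dab1, Immp2l and Fhit). Of these, 3 had a peak at the bound where transcription starts and none at the finish. Among 421 other genes of 300 kb or more with an entry, 45.6% had a peak at the start and 2.38% at the finish. Some promoters bear directly on these peaks, and 5 windows, each from 250 bases before to 50 bases after a start (RefSeq, GRCm38.p6), are shown to set starts under a peak beside 1 without. Capitals mark AGGNGGC, 7 letters from the centre of the usual CTCF motif, on either strand, so that GCCNCCT is also marked.
Dab1 first start (chr4:103619250-103619549, plus strand): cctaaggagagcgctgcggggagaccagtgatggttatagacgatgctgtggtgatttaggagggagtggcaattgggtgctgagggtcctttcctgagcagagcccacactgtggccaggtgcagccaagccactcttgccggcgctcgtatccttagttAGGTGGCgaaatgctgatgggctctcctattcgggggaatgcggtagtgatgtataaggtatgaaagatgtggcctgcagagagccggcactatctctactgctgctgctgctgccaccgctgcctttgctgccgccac
Dab1 internal start (chr4:104367288-104367587, plus strand): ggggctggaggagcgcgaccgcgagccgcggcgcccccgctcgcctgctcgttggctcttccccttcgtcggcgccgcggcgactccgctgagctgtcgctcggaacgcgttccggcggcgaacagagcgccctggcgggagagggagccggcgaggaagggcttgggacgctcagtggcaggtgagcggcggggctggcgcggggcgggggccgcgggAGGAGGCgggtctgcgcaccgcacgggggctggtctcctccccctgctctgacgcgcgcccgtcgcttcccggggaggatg
Immp2l start (chr12:41023840-41024139, plus strand): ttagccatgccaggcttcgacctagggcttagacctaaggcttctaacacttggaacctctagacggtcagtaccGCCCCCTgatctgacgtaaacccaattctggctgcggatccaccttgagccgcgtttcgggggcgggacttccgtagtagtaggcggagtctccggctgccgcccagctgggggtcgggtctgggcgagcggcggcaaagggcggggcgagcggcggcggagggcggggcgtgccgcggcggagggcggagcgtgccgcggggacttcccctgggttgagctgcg
Flrt3 start, within Macrod2 (chr2:140671427-140671726, minus strand): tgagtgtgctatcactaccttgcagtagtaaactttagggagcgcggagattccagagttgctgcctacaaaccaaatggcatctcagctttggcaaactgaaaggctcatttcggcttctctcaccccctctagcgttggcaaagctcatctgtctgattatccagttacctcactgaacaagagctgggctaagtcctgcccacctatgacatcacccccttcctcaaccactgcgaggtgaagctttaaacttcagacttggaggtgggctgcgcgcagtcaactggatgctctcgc
Fhit first start, with no peak (chr14:11161986-11162285, minus strand): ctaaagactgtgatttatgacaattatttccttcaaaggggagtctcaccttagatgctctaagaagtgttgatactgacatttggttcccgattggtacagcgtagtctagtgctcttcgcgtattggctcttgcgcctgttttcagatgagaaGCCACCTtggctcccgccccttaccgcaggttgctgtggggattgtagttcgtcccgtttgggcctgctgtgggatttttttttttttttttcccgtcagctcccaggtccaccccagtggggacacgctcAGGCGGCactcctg

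Both Dab1 windows and the Flrt3 window lay wholly under a peak, and 150 bases of the Immp2l window did. The Macrod2 peak, 638 bp downstream of the nearest annotated start, missed its promoter windows. AGGNGGC was found once in each Dab1 window, once in the Immp2l window on the opposite strand, and 2 times at the first Fhit start. It was not found in the windows of Flrt3 or Macrod2, or at the second Fhit start, which like the first has no peak. Of all 32851 promoter windows 29.4% held it on either strand. The letters CCCTC, after which CTCF was named, were found 2 times in the first Dab1 window and in the Immp2l window, and once in the internal Dab1 window, the Flrt3 window and the second Fhit window. They were not found at the first Fhit start or at Macrod2, and 66.0% of all windows held them on either strand. The letters of the 2 motifs can overlap. A match here describes letters within 300 bases and not a binding site, and summits lay 88 to 489 bp from the starts whose windows were under a peak.

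Inside the genes peaks were sparse. The 49 inside summits gave 0.389 per 100 kb over the 9 genes (interval 0.288 to 0.514), against 0.793 (0.762 to 0.825) over the other genes of 300 kb or more. Density falls with gene length, and the gap narrowed against the 52 other genes of 1000 kb or more. These held 0.498 per 100 kb (0.447 to 0.554), a value within the interval of the 9 genes. Lrp1b and Fhit, with 0 and 1 inside peaks in 2058 and 1612 kb, pulled the pooled value of the 9 down. The median density was 0.413 in the 9 genes and 0.675 in the other 548, and 7 of the 9 lay below 0.675. Against the median of 0.454 in the other genes of 1000 kb or more, 5 of the 9 lay below. All 9 were kept here, although Immp2l and Wwox are shorter than 1000 kb.

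The 9 genes differed widely among themselves. Lrp1b held no inside peak in its 2058 kb, which allows up to 0.179 per 100 kb. Fhit held 1, or 0.062 per 100 kb (0.00157 to 0.346). That peak (chr14:9721801-9722847) lay 172 kb above the lower bound and was weak, with a strength of 48.1, 10.4 in the first column and 37.7 in the second. Immp2l held 3 (0.322, interval 0.0664 to 0.941), Macrod2 7 (0.350, 0.141 to 0.722) and Csmd3 5 (0.413, 0.134 to 0.963). Dab1 held 7 (0.622, 0.250 to 1.28), Csmd1 11 (0.670, 0.334 to 1.20), Auts2 8 (0.723, 0.312 to 1.43) and Wwox 7 (0.767, 0.308 to 1.58). Neighbours in this order could not be told apart by their intervals. The interval of Lrp1b ended below where those of Dab1, Csmd1, Auts2 and Wwox began. Having at least 1 inside peak, which 8 of the 9 genes did, was about as common among the other genes of 300 kb or more (91.4%). Among those of 1000 kb or more the share was 98.1% (51 of 52).

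**Figure D2:**
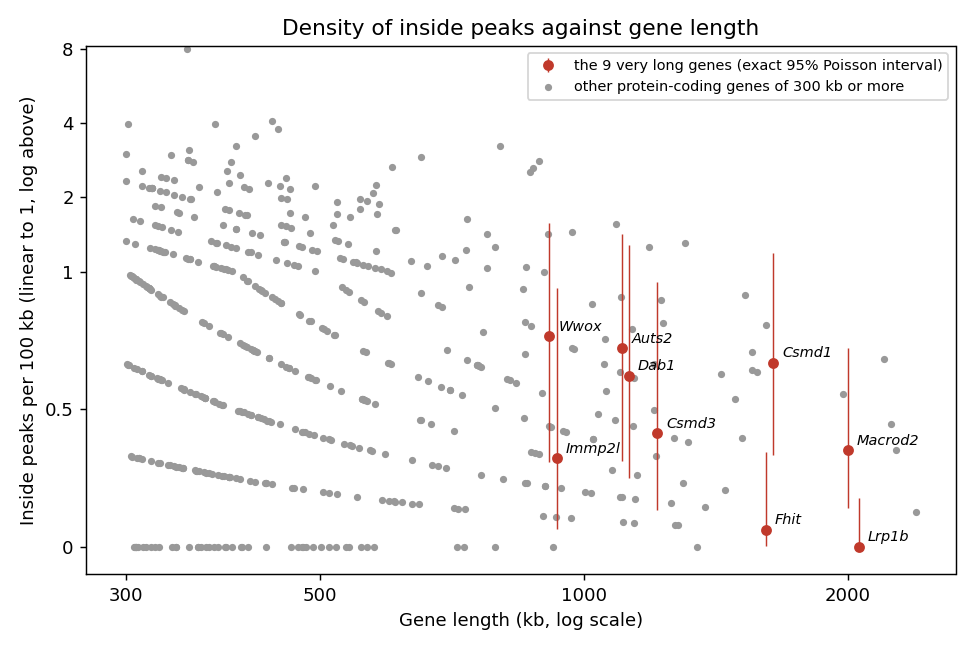
Inside peaks per 100 kb (y axis, linear to 1 and log above) against gene length (x axis, kb, log scale), with the 9 genes in red with exact 95% Poisson intervals and the other 548 genes in grey. Lrp1b and Fhit lie at the foot of the plot at 0 and 0.062, while Wwox at 0.767 lies above the median of the other genes, 0.675.

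The strongest inside peak of the 9 genes lay in Dab1, at its second annotated start (chr4:104366508-104369438). Its summit was 489 bp from that start and 748 kb above the first. The strength was 687, with 317 and 369 in the first and second column. It was broad, at 2931 bp. In its balance of the columns it differed from the other inside peaks, since the second column exceeded the first by 0.22 on the log2 scale, against a median of 2.34 over the 49 inside peaks. At the 8 end peaks that median was 0.25, and in the other long genes it was 0.22 at ends and 2.22 inside. Of the 49 inside peaks 48 (98.0%) were stronger in the second column, as were 95.5% of 2379 peaks inside the other long genes. The exception among the 49 was an Auts2 peak (chr5:131537081-131539217) with 133 in the first column and 95.7 in the second. Auts2 also held the next strongest inside peak of the 9 genes, at 515 (chr5:132231025-132232448), and Wwox the third, at 356 (chr8:114770658-114771883). The inside peaks had a median strength of 123, against 153 for those of the other long genes, and 34.7% and 47.0% lay above the list's median.

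**Figure D3:**
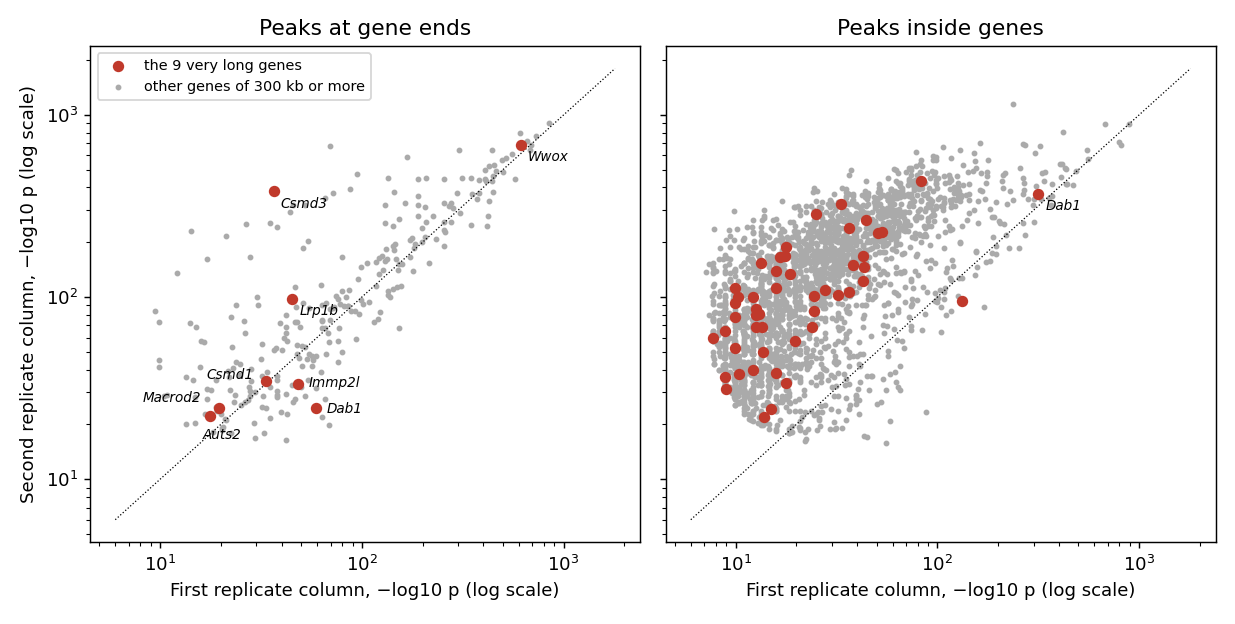
The −log10 p of each peak in the second replicate column (y axis) against the first (x axis), both on log scales, at gene ends (left) and inside genes (right), with peaks of the 9 genes in red and of the other genes of 300 kb or more in grey. The dotted line marks equal values. The inside peak of Dab1 at 317 and 369 lies near that line, as the end peak of Wwox does at 613 and 688, while most inside peaks lie above it.

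Other protein-coding genes overlapped 3 of the 9, and 8 of the 49 inside peaks (16.3%) lay in them or within 5 kb of them. Coding genes overlapped 92 of the other 548 genes (16.8%), and by the same rule 5.52% of their 2429 inside peaks, counted once for each gene, lay in or near these. No share here was matched for gene length, and the 8 peaks lay in only 3 genes, so they are not independent. Macrod2 contains Flrt3, which encodes an adhesion protein of axon guidance and synapses. Of the 7 inside peaks of Macrod2, 3 lay at Flrt3. The one nearest to its upper bound, where Flrt3 starts, had its summit 88 bp from that bound and a strength of 274 (50.8 and 224 in the first and second column). Another lay 775 bp from that bound (strength 51.8), and the third, at 281, lay within the gene 3045 bp from the same bound. Immp2l contains Lrrn3, which encodes a neuronal leucine-rich repeat membrane protein, and its strongest inside peak (187) lay 1185 bp beyond the upper bound of Lrrn3. Csmd1 overlaps C030002A05Rik, which held 4 of the 11 inside peaks of Csmd1, 1 of them 511 bp from its upper bound (62.5). Within 1 kb of a coding gene's bound lay 3 of the 49 inside peaks (6.12%), against 1.47% of 2379 peaks inside the other long genes. None of the 49 lay in or within 1 kb of the 35 non-coding genes and pseudogenes that overlap the 9 genes. Among the peaks inside the other long genes 8.45% did. The exact interval for the 9 genes reaches 7.25%, but it takes each peak as independent, and some lie close together, as at Flrt3. How much of each gene's length non-coding genes cover was not compared, so no conclusion is drawn from this difference.

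The longest peak-free stretch of a gene is the greatest distance between neighbouring points among its bounds and the summits between them. The 3 longest of all 557 genes of 300 kb or more were in Lrp1b (2058 kb), Macrod2 (1580 kb) and Fhit (1440 kb). The longest among the other genes was 1346 kb, in Naaladl2, and the dystrophin gene Dmd had 1204 kb. In Csmd3 the stretch was 522 kb, in Dab1 507 kb, in Csmd1 487 kb, in Immp2l 468 kb, in Auts2 311 kb and in Wwox 200.0 kb. The median was 507 kb in the 9 genes and 280.4 kb in the other genes. A stretch of 500 kb or more was found in 5 of the 9, against 13.7% of the other genes of 300 kb or more, 34.4% of those of 500 kb or more and 65.4% of those of 1000 kb or more. Against the other genes of 1000 kb or more, whose median stretch was 582 kb, 3 of the 9 genes lay above it, namely Lrp1b, Macrod2 and Fhit. The direction of the difference in medians thus turned round when the other genes were held to 1000 kb or more. The 9 genes were not held to that minimum, and Immp2l (932 kb) and Wwox (913 kb) fall below it.

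**Figure D4:**
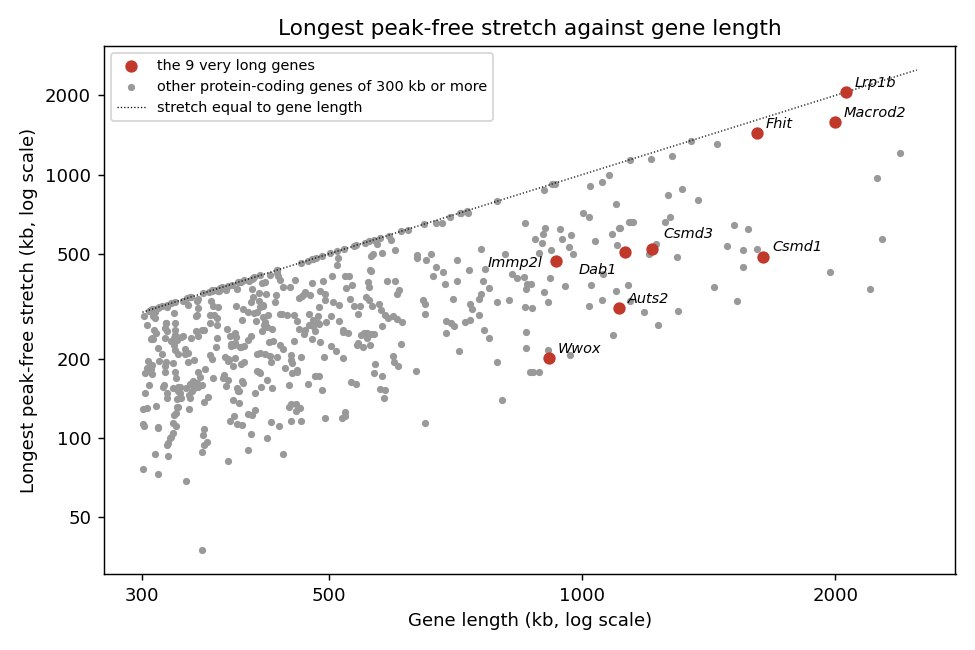
Longest peak-free stretch (y axis, kb, log scale) against gene length (x axis, kb, log scale) for the 9 genes in red and the other 548 genes in grey, with a dotted line where the stretch equals the gene. Lrp1b lies on the line at 2058 kb, Macrod2 and Fhit lie above every grey point at 1580 and 1440 kb, and the other 6 red points lie among the grey ones.

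The order did not simply follow length, since 4 other genes were longer than both Lrp1b and Macrod2. Dmd, at 2390.4 kb, held 3 inside peaks. Ptprd, which encodes a receptor phosphatase, held 8 in 2271 kb with a longest stretch of 571 kb. Cntnap2 held 10 with a stretch of 971 kb, and Lsamp 15 with a stretch of 368 kb. Ptprd was named after its values were seen. Set against the mean spacing of its own summits, gene length over 1 more than the number of summits between the bounds, the Macrod2 stretch was 7.12 times that mean, the third highest of the 557 genes. In Lrp1b and Fhit the ratio was 2.00 and 1.79, low because they have 1 summit each. The median ratio was 2.53 in the 9 genes and 2.64 in the other 548. Of the 9 genes, Macrod2 thus had the most unevenly placed peaks by this measure. The measure counts close summits separately, which raises the ratio of Macrod2, with summits at 273, 275 and 276 kb, all at Flrt3. Of the 7 inside summits of Macrod2, 5 lay within 276.3 kb of the lower bound, where the gene starts. The other 2 lay 141 kb and 139 kb from the upper bound, with nothing between.

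Some stretches ran on beyond the gene. Extended to the next summit on either side, the peak-free stretch that includes Lrp1b measured 3279.7 kb, that of Fhit 1585 kb, that of Immp2l 1500.0 kb and that of Csmd3 1106 kb. In Macrod2, Dab1 and Csmd1 the stretch was no longer than within the gene. To see whether the sparse region is wider than the gene, peaks were counted in the 1 Mb on either side. These counts include end peaks that lie beyond a bound, as at Auts2, Csmd1 and Csmd3. Inside counts leave out all end peaks, so the rules tilt toward a lower density inside, in the 9 and in the other genes. Inside density was lower than flank density in 8 of the 9 genes, but so it was in 72.1% of the other genes. Pooled, it was 0.389 inside the 9 genes against 0.722 in their flanks, a ratio of 0.54, while in the other genes it was 0.793 against 1.31, a ratio of 0.61. In the other genes of 1000 kb or more it was 0.498 against 0.938, a ratio of 0.53, so the direction of the difference in ratios turned with length. Csmd3 was the exception, with 0.413 inside and 0.300 in its flanks. Lrp1b had the emptiest flanks, with 4 peaks in 2 Mb, or 0.200 per 100 kb, and Csmd1 the fullest, with 1.10.

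**Figure D5:**
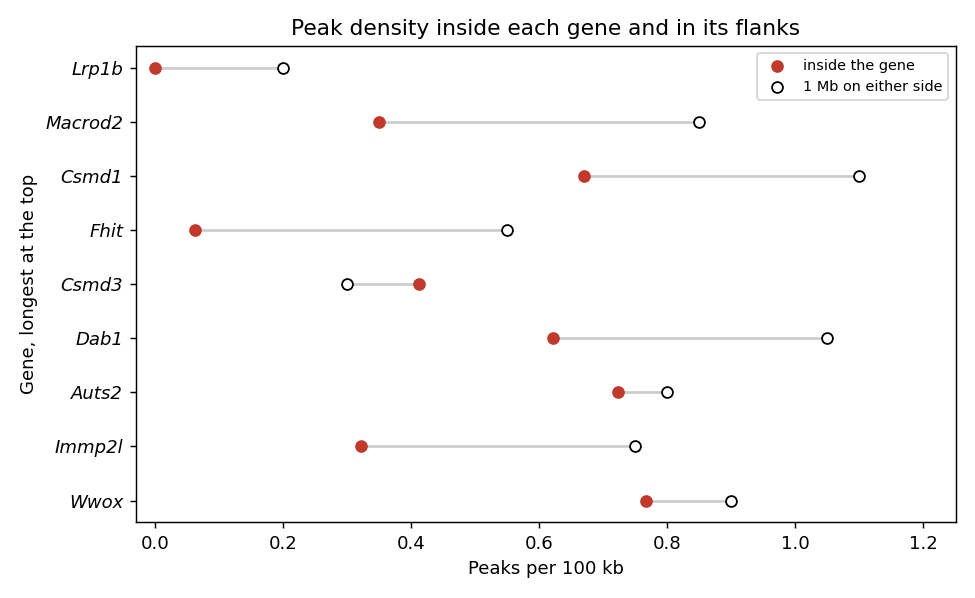
Peaks per 100 kb (x axis) inside each of the 9 genes (red) and in the 1 Mb on either side (open circles), with the longest gene at the top of the y axis. Red points lie left of the open circles in all genes but Csmd3 (0.413 inside, 0.300 in the flanks), and Lrp1b is low in both (0 and 0.200).

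Other genes of the same kind and relatives of the 9 were then counted. The first list held 25 other very long genes, many of them at human fragile sites or at break clusters of neural progenitors. Of these, 15 had an end peak (60.0%, interval 38.7 to 78.9). Over the other 548 genes, which include the 25, the share was 47.1%, and it was 42.3% in those of 1000 kb or more. Both shares lie within that interval. The strongest end peaks of the 25 were at Lsamp (907), Ctnna2 (505) and Rora (440.5). Inside density of the 25 was 0.533 per 100 kb in all with a median of 0.566. A stretch of 500 kb or more was found in 10 of the 25, Naaladl2 and Dmd among them. Such a stretch was found in 13.7% of the other 548 genes and in 65.4% of those of 1000 kb or more. The 25 had a median length of 1185 kb. Naaladl2, like Lrp1b, had 1 end peak (152) and no peak inside, and it was the longest of the other genes with none, before the glutamate receptor gene Grm7 (922 kb) and Lrrtm4 (791 kb).

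Among 9 relatives of the 9 genes, 6 had an end peak (66.7%, interval 29.9 to 92.5). Of all other protein-coding genes, whatever their length, 29.1% had one (6341 of 21765), just below that interval. The 6 relatives were led by Lrp1 (895), Hint1 (106), a small relative of Fhit, and Lrp2 (103). Only Csmd2 among them is 300 kb or longer. Csmd1 and Csmd3 held 0.670 and 0.413 inside peaks per 100 kb, against 1.72 in Csmd2 (10 in 581 kb). Macrod2 held 0.350 per 100 kb, against 5.66 in Macrod1 (8 in 141 kb), and Lrp1b held 0, against 7.23 in Lrp1 (6 in 83.0 kb). The longest stretches of the relatives were in Lrp2 (157 kb), Csmd2 (141 kb) and Dab2 (86.8 kb). These pairs differ in length as well as in density, and the 2 cannot be told apart here. Of 8 genes of the Reelin pathway around Dab1, 6 had an end peak, against the same 29.1%. They were led by Rapgef1, a guanine nucleotide exchange factor gene (1234), Crk (245) and the receptor gene Vldlr (179). Reln itself, which encodes the ligand, had one of 39.4 and 3 inside peaks in 460.3 kb. Its longest stretch was 341 kb, followed in this list by Fyn at 78.8 kb and Rapgef1 at 50.7 kb. Of the other long genes, the 3 nearest to the median density of the 9, which is 0.413 inside peaks per 100 kb, were Chrm3, Mageb18 and Sema3a, with 0.412, 0.416 and 0.418.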

How the data were processed

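CTCF ChIP-seq was made from 2 immunoprecipitations and 2 inputs, each replicate from about 15M neurons fixed for 10 minutes in 1% formaldehyde and sheared to 200 to 500 bp, per the labels' protocols. Builds mm10 and GRCm38.p6 and the tools MACS2, BWA, SAMtools, Trimmomatic and FastQC are named in the submitters' processing notes. Their versions and the peak threshold were not given in the sources used here, nor is the use of inputs. The list deposited by the authors has 20 columns in the layout of the IDR program. In it the authors deposited the −log10 p per replicate peak, the strength, which equals their sum to within 0.001 in every row, and the −log10 of the IDR. None is corrected for depth. Summit offsets in the list placed the peaks.

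Gene bounds and promoter windows are RefSeq GRCm38.p6, with 348 genes on scaffolds left out. An end peak has its summit within 1 kb of a bound, and an inside peak lies between the bounds and farther than 1 kb from both. Flanks of 1 Mb were clipped to the span of genes and peaks. Shares have Clopper-Pearson and densities exact Poisson intervals at 95%. The 9 genes, the gene lists and the tests were chosen with earlier results of these data known, and motifs after the data were seen. Named genes are the 9, overlapping coding genes, per list the 3 strongest end peaks and 3 longest stretches, and 3 others each by longest stretch, length without inside peaks and median density. Others were named after their values were seen. A few genes picked this way are left out of the text. Alternatives were stricter peaks, each replicate column alone, any base of a peak, other windows, length minimums and definitions of a stretch. Counting code was tested on simulated data against a direct count. The list holds no expression values, so the cell type was not checked. Work was done in Python 3.11.15 with scipy 1.17.1, numpy 2.4.6, matplotlib 3.10.9 and pandas 2.3.3.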

Additional observations from a re-analysis of the deposited data

How the results depend on the processing

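The lower density inside the 9 genes kept its direction under every alternative run, but the difference shrank against other genes of 1000 kb or more. No alternative left out Lrp1b or Fhit, which held the fewest inside peaks. In an alternative added after seeing the data, peaks in or within 5 kb of overlapping coding genes were left out of all long genes alike. The density inside the 9 genes was then 0.325, against 0.749 per 100 kb in the other genes. Among peaks above the median strength the 9 genes held 0.135 per 100 kb, with an end peak at 2 genes, a median longest stretch of 689.7 kb and a share with an end peak 2.60 points below the other genes (difference −2.60). By the second replicate column alone, above its median, the same values were 0.135, 2 genes, 675 kb and 2.88 points above. By the first alone they were 0.111 and 1002 kb, with an inside peak at 5 genes and an end peak at 6 (29.8 points above). At an IDR of 0.01 they were 0.254 and 576 kb, with 6 end peaks (26.5 points above). End windows of 500 bp gave 6 genes (33.3 points above). Counting any base of a peak gave a median stretch of 506 kb, stretches between 2 summits 467 kb over the 7 genes that have them (not Lrp1b or Fhit), and stretches past the bounds 1106 kb (1.63 on the log2 scale over the other genes). Against other genes of 1000 kb or more the log2 ratio was −0.36 for density and −0.20 for the stretch. The latter was reversed from 0.85, and all 9 genes were kept. Without the peaks in or near overlapping coding genes the median stretch was 641 kb, against 285 kb in the other genes. The causes were not tested. Neither replicate could be left out, since the list holds only peaks of both. No paired analysis was possible because the list joins both immunoprecipitations and holds no input values. Depth per library is unknown, and a stretch without a listed peak may hold weaker binding.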

Other observations

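In the 8 genes with a peak at 1 bound, inside peaks were counted on the side of the gene's midpoint next to that bound. That side held 27 of 48 (56.3%), from 2 of 7 in Dab1 to 5 of 7 in Macrod2 and 3 of 3 in Immp2l. In the 249 other genes with a peak at 1 bound, it held 44.3% of 1103 inside peaks. Among the 27 were all 8 inside peaks in or near overlapping coding genes, at Flrt3, C030002A05Rik and Lrrn3. The shares without such peaks were not compared. The Lrrn3 peak of Immp2l, at 463 kb of 932 kb, lay close to the midpoint. The difference between the shares was not tested. Inside peaks of the 9 genes were narrower than those of the other long genes, with a median width of 870.0 bp against 1013 bp, and their end peaks had 1340.0 bp against 1440.0 bp. Their widths were not tested.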
